A study of Mus musculus with 6 samples.

Results

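The genes described here are the semaphorins, their plexin and neuropilin receptors, and the 2 plexin domain containing genes Plxdc1 and Plxdc2, measured in peritoneal macrophages of mice with a conditional deletion of the transcription factor Gata6 and of wild-type mice. They were taken by symbol, as every probe set annotated with a single gene whose symbol was Nrp1, Nrp2, Plxdc1 or Plxdc2, began with Plxna, Plxnb, Plxnc or Plxnd, or began with Sema and a digit. The rule found 84 probe sets of 34 genes among 34958 probe sets with 1 symbol. These were 20 semaphorins (7 of class 3, 6 of class 4, 2 of class 5, 4 of class 6 and 1 of class 7), 9 plexins, 2 neuropilins, the 2 Plxdc genes, and Plxna4os1, an opposite-strand transcript gene that the rule caught by its name.

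The study compared 3 Gata6-KO with 3 Gata6-WT samples on 1-colour expression arrays. Each sample was RNA from peritoneal lavage cells of 2 to 3 mice aged 7 weeks, pooled before macrophages high in CD11b and low in or negative for MHC class II were sorted. The Gata6-KO mice carried a conditional (floxed) Gata6 allele and the Gata6-WT mice were wild type. The labels state neither which Cre drove the deletion nor which exons it removed, nor whether the wild-type mice carried Cre or floxed alleles. The labels call the samples biological replicates, and p-values measure the spread between these pools.

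Semaphorins are secreted or membrane-bound proteins that guide growing axons and also steer the movement and contacts of immune and vascular cells. They signal through plexins, transmembrane receptors whose cytoplasmic part acts on small GTPases and so on adhesion and the actin cytoskeleton. Most class 3 semaphorins bind neuropilins, co-receptors with a short cytoplasmic tail that also bind forms of vascular endothelial growth factor, and class 4 to 7 semaphorins mostly bind plexins directly. Macrophages carry several of these receptors and ligands.

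Because Gata6 binds DNA at the core letters GATA, the 250 bases upstream of the listed transcription start are shown for the receptors that passed the test described below and have 1 listed start in RefSeq (build GRCm38.p6). Sequences run 5′ to 3′ on the gene's strand, and capitals mark each GATA or its reverse complement TATC.
Nrp1, chr8:128358823-128359072, plus strand: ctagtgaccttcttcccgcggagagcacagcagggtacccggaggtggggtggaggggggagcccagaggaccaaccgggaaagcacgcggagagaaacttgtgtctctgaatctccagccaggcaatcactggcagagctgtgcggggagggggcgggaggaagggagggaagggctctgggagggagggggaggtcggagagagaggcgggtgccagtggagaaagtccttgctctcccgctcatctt
Nrp2, chr1:62703067-62703316, plus strand: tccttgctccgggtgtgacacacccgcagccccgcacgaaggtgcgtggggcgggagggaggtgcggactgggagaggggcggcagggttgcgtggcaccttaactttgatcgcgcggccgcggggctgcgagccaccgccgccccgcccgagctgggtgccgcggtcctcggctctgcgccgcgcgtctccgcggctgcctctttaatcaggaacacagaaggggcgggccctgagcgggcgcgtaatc
Plxnc1, chr10:94944846-94945095, minus strand: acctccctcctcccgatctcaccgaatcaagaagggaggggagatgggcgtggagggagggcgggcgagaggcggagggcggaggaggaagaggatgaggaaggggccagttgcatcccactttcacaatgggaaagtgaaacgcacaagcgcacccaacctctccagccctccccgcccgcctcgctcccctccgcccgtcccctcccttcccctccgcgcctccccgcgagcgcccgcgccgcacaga
Plxnd1, chr6:115995006-115995255, minus strand: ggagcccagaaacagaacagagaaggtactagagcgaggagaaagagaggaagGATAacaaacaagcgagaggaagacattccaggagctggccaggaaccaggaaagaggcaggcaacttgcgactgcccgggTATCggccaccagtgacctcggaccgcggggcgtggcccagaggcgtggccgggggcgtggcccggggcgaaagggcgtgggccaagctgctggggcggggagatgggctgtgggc
The core was absent from the windows of Nrp1, Nrp2 and Plxnc1, and was present 2 times in that of Plxnd1, beginning 197 and 116 bases upstream of the start. Of all 32851 windows of this length in the RefSeq table, 53.6% held the core, against 16 of 37 windows (43.2%) of the 26 member genes with an entry. A longer word on either strand, whether the word AGATAA, the word AGATAG, the word TGATAA or the word TGATAG, each of which contains the core, was in none of the 4 windows shown. It was in 5 of the 37 member windows (13.5%) and in 26.5% of all windows. The 7 member genes that passed the test and have an entry had 12 windows. Of these, 4 (33.3%) held the core and 1 (8.3%), of Sema6d, held a longer word. A match is a description of letters in a short window.

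The Gata6 probe sets were examined first. Probe set 1443081_at had signals of 184, 173 and 183 in Gata6-KO and 337, 449 and 483 in Gata6-WT (log2 difference −1.15, limma adjusted p = 0.0043), and 1425464_at was also lower (−0.88, adjusted p = 0.011). The remaining probe set, 1425463_at, differed by −0.01 (adjusted p = 0.98), and where any of the 3 lies relative to the deleted part is not known. In both genotypes replicate 1 had male-type signals of Xist and Eif2s3y and replicates 2 and 3 had female-type signals, so the values below are also given by sex-linked type. Correlations of log2 signal lay between 0.964 and 0.972 within a genotype and between 0.930 and 0.951 across genotypes. Of 44 markers of 11 other cell types on the array, 14 were tested, 2 of those were lower (S100a8 and Cd209a) and the others did not pass. Of the 5 macrophage markers, all tested, Mertk was higher (0.43, limma adjusted p = 0.031). Adgre1, a defining surface marker of macrophages, was lower, with signals of 8528, 14617 and 13301 in Gata6-KO and 39618, 42302 and 47450.0 in Gata6-WT (−1.86, limma adjusted p = 0.00027), while Cd14, Csf1r and Lyz2 did not pass. The summed signal of the 5 was 168569 to 184283 in Gata6-KO and 183265 to 224638 in Gata6-WT. The 2 monocyte markers on the array, Ccr2 and Plac8, were both higher, with a summed signal of 1939 to 9941 in Gata6-KO and 236 to 291 in Gata6-WT. Most of the Gata6-KO sum was Ccr2, at 9632, 2401 and 1740 (log2 difference 4.58, limma adjusted p = 0.00064), highest on replicate 1. Plac8 was dimmer, at 309, 342 and 199 in Gata6-KO and 105, 167 and 130 in Gata6-WT (0.98, limma adjusted p = 0.038).

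Probe sets entered the test when log2(signal + 16), averaged over the 6 arrays, was above its 40th percentile, which corresponds to a signal of about 47.5. Differences are Gata6-KO minus Gata6-WT on the log2(signal + 16) scale, so those of dim probe sets are understated, and a call is a limma adjusted p under 0.05 over all 27022 probe sets tested. Of the 84 member probe sets 47, from 27 genes, were tested. Of those 47, 13 were higher and 4 lower in Gata6-KO, 36.2% in all, where 10.8% of all probe sets tested passed (5.12% higher and 5.67% lower). Counted by gene, with the brightest tested probe set standing for each, 6 were higher (Nrp1, Nrp2, Plxnc1, Plxnd1, Sema4a and Sema6d) and 2 lower (Sema4c and Plxdc2) of 27, where 13.1% of 12511 genes passed (5.61% higher and 7.46% lower). Signals of the 3 Gata6-KO pools all lay above those of the 3 Gata6-WT pools for 19 of the 47 probe sets and all below for 6, where groups did not overlap for 31.0% of all probe sets tested (14.8% above and 16.3% below). The median log2 difference was 0.23 over the 47 and −0.01 over all probe sets tested. Probe sets of 1 gene measure the same transcripts and are not replicates.

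**Figure D1:**
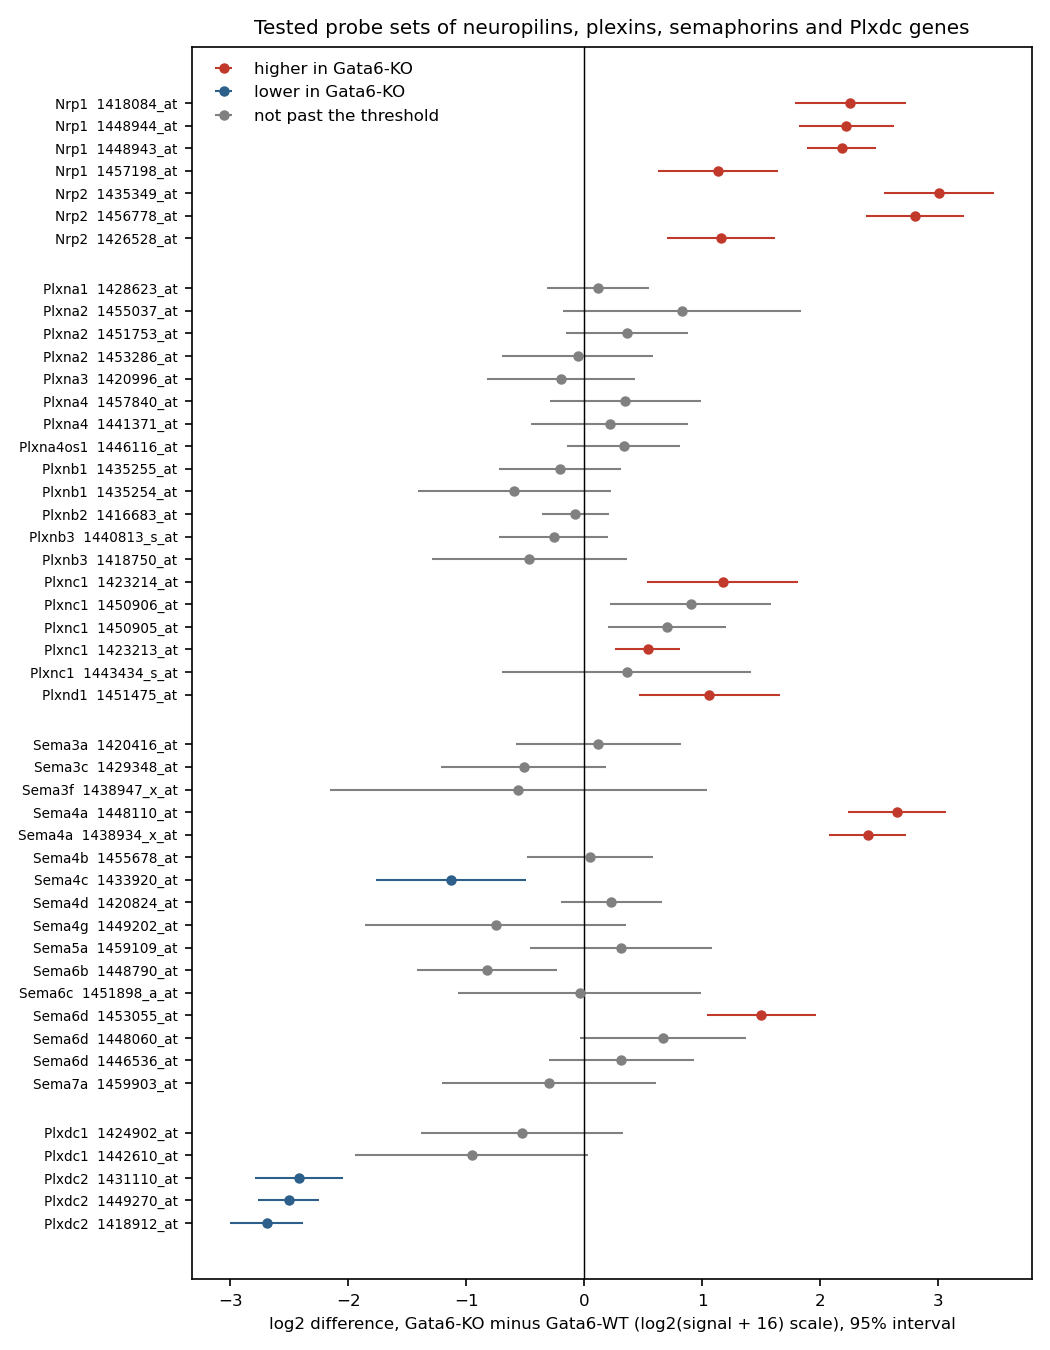
Log2 difference (Gata6-KO minus Gata6-WT, log2(signal + 16) scale) of each of the 47 tested probe sets, with 95% intervals from limma, grouped from top to bottom as neuropilins, plexins, semaphorins and Plxdc genes. All 7 neuropilin probe sets tested lie to the right of 0 and the 3 Plxdc2 probe sets to the left, between −2.69 and −2.42.

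Both neuropilins were higher in Gata6-KO macrophages, and all 7 of their tested probe sets passed the threshold, with a median log2 difference of 2.22. Nrp1 encodes the co-receptor for Sema3a and for a vascular endothelial growth factor isoform, and Nrp2 the co-receptor for Sema3f and for lymphatic growth factors. In sorted but bulk samples such as these, a change in the number of cells of a type and a change in RNA per cell cannot be told apart.

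The brightest Nrp1 probe set, 1448943_at, had signals of 12501, 12109 and 13692 in Gata6-KO and 2409, 3329 and 2742 in Gata6-WT. All 3 Gata6-KO pools lay far above the highest Gata6-WT pool, and the difference was 4.53-fold (log2 2.18 ± 0.13 SE, limma adjusted p = 2.27e-05). Probe set 1418084_at gave 6133, 6278 and 7706 in Gata6-KO and 949.8, 1658 and 1686 in Gata6-WT (2.25 ± 0.21, limma adjusted p = 0.000186). Probe set 1448944_at gave 6242, 5278 and 6963 in Gata6-KO and 991, 1603 and 1391 in Gata6-WT (2.22 ± 0.18, limma adjusted p = 8.66e-05). Gata6-WT replicate 1 was the lowest pool for each of these 3 probe sets. The fourth, 1457198_at, had signals of 663, 372 and 486 in Gata6-KO and 243, 179 and 233 in Gata6-WT. Its groups did not overlap either, but its difference of 2.19-fold (1.13 ± 0.23, limma adjusted p = 0.0124) was smaller than those of the other 3, and its adjusted p was 0.057 over the female-type pools alone.

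Nrp2 had the largest difference of any tested member probe set. Probe set 1435349_at had signals of 886, 1127 and 954 in Gata6-KO and 137, 116 and 79.3 in Gata6-WT. The lowest Gata6-KO pool was well above the highest Gata6-WT pool, and the difference was 8.03-fold (log2 3.00 ± 0.21 SE, limma adjusted p = 3.58e-05). Probe set 1456778_at had 778, 874 and 862 in Gata6-KO and 86.8, 103 and 133 in Gata6-WT, a 6.99-fold difference (2.80 ± 0.18, adjusted p = 3.15e-05). Probe set 1426528_at had 309.6, 417 and 345 in Gata6-KO and 170.2, 122 and 163 in Gata6-WT. Its groups were also separate, at 2.23-fold (1.16 ± 0.20, limma adjusted p = 0.0063). The fourth, 1447343_at, was too dim to be tested, at 60.8, 69.7 and 133 in Gata6-KO and 53.8, 7.65 and 21.3 in Gata6-WT. The part of the monocyte markers in the neuropilin values was not tested. Of the 13 probe sets called higher, 1 (Nrp1 1457198_at) had its highest signal on Gata6-KO replicate 1, 5 on replicate 2 and 7 on replicate 3. Among the Gata6-KO arrays, Ccr2 was highest on replicate 1, the male-type array, and Plac8 on replicate 2. Several of the 13 belong to the same gene, so the tally is a description only.

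**Figure D2:**
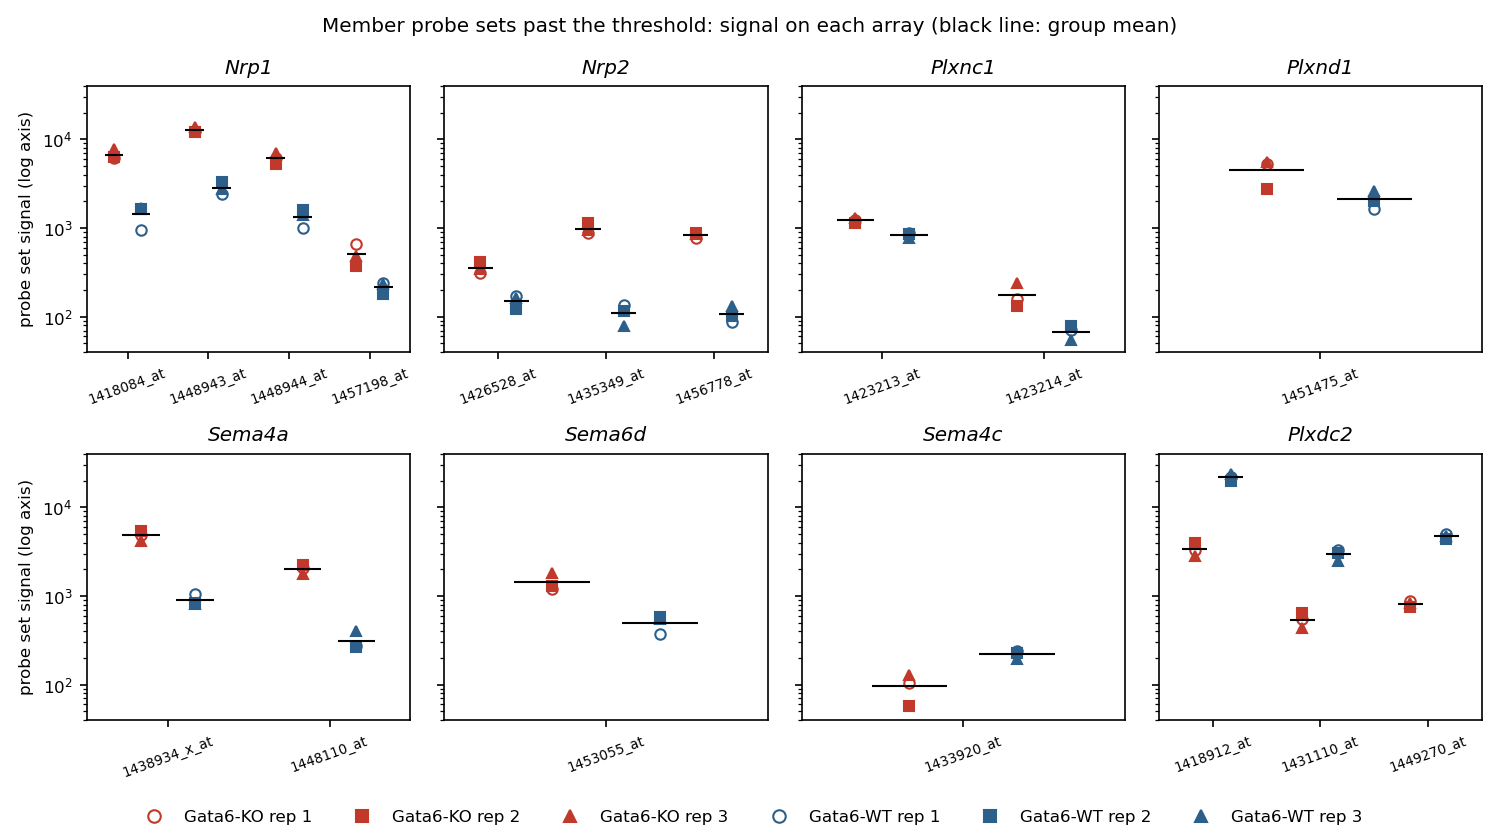
Signal of each array (log axis) for the 17 member probe sets past the threshold, by gene, with Gata6-KO in red to the left of Gata6-WT in blue and the group mean as a black line. Open circles are the male-type replicates 1, squares and triangles the female-type replicates 2 and 3, and in every panel the 2 groups do not overlap.

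Of the 9 plexins, Plxnc1 and Plxnd1 had tested probe sets past the threshold, all higher in Gata6-KO, and the tested probe sets of the other 7 and of Plxna4os1 did not pass. The median over the 19 tested probe sets of the plexins and Plxna4os1 was 0.33, and 3 of the 19 (15.8%) were called, near the 10.8% of all probe sets tested.

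Plxnd1 encodes the receptor of Sema3e, which it binds without a neuropilin, and a receptor of Sema4a. Its 1 probe set, 1451475_at, had signals of 5295, 2740.4 and 5531 in Gata6-KO and 1648, 2009 and 2652 in Gata6-WT. Gata6-KO replicate 2 lay close to the highest Gata6-WT pool, and the others were far above it. The difference was 2.08-fold (log2 1.06 ± 0.27 SE, limma adjusted p = 0.0328). Plxnd1 no longer passed when the Gata6-KO array 1 (adjusted p = 0.109) or 3 (0.115) was left out, or the Gata6-WT array 1 (0.093) or 2 (0.095), and the log2 difference then lay between 0.88 and 1.04. Over the female-type pools alone it was 0.75 (limma adjusted p = 0.219), and in the male-type pair 1.67.

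Plxnc1 encodes the receptor of Sema7a. Its brightest probe set, 1423213_at, had signals of 1233, 1131 and 1290.0 in Gata6-KO and 875, 853 and 776 in Gata6-WT. The groups were narrow and separate, at a 1.45-fold difference (log2 0.54 ± 0.12 SE, limma adjusted p = 0.0215). Probe set 1423214_at had 157, 133 and 240.2 in Gata6-KO and 70.5, 79.0 and 54.6 in Gata6-WT (1.17 ± 0.28, limma adjusted p = 0.0285). Probe sets 1450905_at (0.70, adjusted p = 0.080) and 1450906_at (0.90, adjusted p = 0.096) also had all Gata6-KO signals above all Gata6-WT signals but missed the threshold, and 1443434_s_at (0.36, adjusted p = 0.69) had overlapping groups. Probe set 1423213_at no longer passed when the Gata6-KO array 1 (adjusted p = 0.069) or 3 (0.073) was left out, or the Gata6-WT array 2 (0.064) or 3 (0.053). The call of 1423214_at was lost without any 1 array except Gata6-KO replicate 2, with adjusted p up to 0.114. Averaged over its tested probe sets, Plxnc1 differed by 0.73 (limma adjusted p = 0.061).

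Plxnb2, the class B plexin that binds Sema4c and Sema4d, was bright in both genotypes. Its signals were 3658, 3705 and 4109 in Gata6-KO and 3559, 3897 and 4718 in Gata6-WT. The groups overlapped, the log2 difference was −0.08 (95% interval −0.36 to 0.21, limma adjusted p = 0.76). Plxna1, a receptor of Sema6d, had 336, 296 and 405 in Gata6-KO and 291, 277 and 389.8 in Gata6-WT, also overlapping (0.11, 95% interval −0.32 to 0.55, adjusted p = 0.77). The tested probe sets of Plxna2, Plxna3, Plxna4, Plxnb1 and Plxnb3, which encode further class A and class B receptors, had log2 differences between −0.59 and 0.83, the ends being Plxnb1 1435254_at and Plxna2 1455037_at. Plxna4os1 differed by 0.33 (adjusted p = 0.38). Its signals were 231, 335 and 204.1 in Gata6-KO and 198, 188 and 204.0 in Gata6-WT. The lowest Gata6-KO signal was only just above the highest Gata6-WT signal.

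Among the semaphorins, Sema4a and Sema6d were higher in Gata6-KO and Sema4c was lower. They made up 3 higher and 1 lower of the 16 tested semaphorin probe sets, whose median log2 difference was 0.08, where 5.12% of all probe sets tested were higher and 5.67% lower.

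Sema4a is a membrane-bound class 4 semaphorin found on dendritic cells and T cells, and it takes part in T cell priming. Probe set 1438934_x_at had signals of 4887, 5451 and 4129 in Gata6-KO and 1048, 843 and 809.6 in Gata6-WT. Every Gata6-KO pool stood several fold above every Gata6-WT pool, at 5.28-fold by the means of log2 values (log2 2.40 ± 0.15 SE, limma adjusted p = 2.27e-05). The suffix of that probe set marks probes that may also detect other transcripts. Probe set 1448110_at, without that suffix, had 2063, 2254 and 1762 in Gata6-KO and 271, 264 and 406 in Gata6-WT. It showed the same separation, at 6.27-fold (2.65 ± 0.18, limma adjusted p = 3.58e-05). The dendritic cell markers, of which 3 of 4 were tested, had a summed signal of 271 to 541 in Gata6-KO and 521 to 1329 in Gata6-WT. The lower sum came from Cd209a, which was called lower and averaged 117 in Gata6-KO and 658 in Gata6-WT. The other markers had higher means in Gata6-KO, with overlapping groups. Zbtb46 averaged 185 in Gata6-KO and 135 in Gata6-WT, and Itgax 70.3 and 62.8, and neither passed. Flt3, which was not tested, averaged 36.9 and 18.0. The part of the dendritic cell and monocyte markers in the Sema4a values was not tested.

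Sema4a binds plexins of classes B and D in mice. Beside its own log2 difference of 2.40, those of these plexins were 1.06 for Plxnd1 and −0.08 for Plxnb2. Plxnb1 1435255_at differed by −0.21 (adjusted p = 0.64) and Plxnb3 1440813_s_at by −0.26 (adjusted p = 0.48).

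Sema6d is a membrane-bound class 6 semaphorin that signals through Plxna1, and Plxna1 can join the receptor Trem2 and its adaptor Tyrobp on myeloid cells. Probe set 1453055_at had signals of 1198, 1314 and 1803 in Gata6-KO and 372, 577 and 550.1 in Gata6-WT. The lowest Gata6-KO pool was above the highest Gata6-WT pool, and the difference was 2.82-fold (log2 1.50 ± 0.21 SE, limma adjusted p = 0.0017). The other tested probe sets of Sema6d were dim and did not pass, at 0.66 for 1448060_at (adjusted p = 0.23) and 0.31 for 1446536_at (adjusted p = 0.53). Averaged over its 3 tested probe sets, Sema6d remained past the threshold at 0.83. Of the receptor side, Plxna1 differed by 0.11, Trem2 by −0.36 (adjusted p = 0.54) and Tyrobp by −0.34 (adjusted p = 0.13).

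Sema4c, a ligand of Plxnb2, was lower in Gata6-KO. Probe set 1433920_at had signals of 106, 56.9 and 128 in Gata6-KO and 243, 230.2 and 194 in Gata6-WT. All Gata6-KO pools lay below all Gata6-WT pools, at a 2.19-fold difference (log2 −1.13 ± 0.28 SE, limma adjusted p = 0.0324). Sema4c no longer passed when the Gata6-KO array 1 (adjusted p = 0.057) or 2 (0.074) was left out, or the Gata6-WT array 1 (0.090), 2 (0.102) or 3 (0.057), and the log2 difference then lay between −1.22 and −0.84. Over the female-type pools alone the adjusted p was 0.132.

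Sema6b, a class 6 ligand of class A plexins, had signals of 76.4, 103 and 151 in Gata6-KO and 201, 174 and 232 in Gata6-WT. These did not overlap, but the difference of −0.83 missed the threshold (limma adjusted p = 0.082). The remaining tested semaphorins, Sema3a, Sema3c, Sema3f, Sema4b, Sema4d, Sema4g, Sema5a, Sema6c and Sema7a, differed by −0.75 (Sema4g) to 0.31 (Sema5a), the lowest adjusted p among them being 0.35. Sema4d, a ligand of Plxnb1, Plxnb2 and Cd72, had 198, 244 and 215 in Gata6-KO and 177, 168 and 211 in Gata6-WT (0.23, adjusted p = 0.51). Sema7a, the ligand of Plxnc1, had 23.4, 47.2 and 67.6 in Gata6-KO and 40, 68.8 and 66.4 in Gata6-WT (−0.30, adjusted p = 0.70). Both of these had overlapping groups.

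The neuropilin ligands of class 3 were dim. Sema3f 1438947_x_at had 70.5, 65.7 and 218 in Gata6-KO and 56.6, 104 and 591 in Gata6-WT, so replicate 3 was the highest pool in each genotype and the groups overlapped (−0.56, adjusted p = 0.68). Sema3a 1420416_at had 60.1, 80.3 and 54.6 in Gata6-KO and 58.0, 64.8 and 51.8 in Gata6-WT (0.12, adjusted p = 0.86). Sema3c 1429348_at had 57.7, 75.3 and 98.5 in Gata6-KO and 134, 143 and 77.8 in Gata6-WT (−0.51, adjusted p = 0.35). The other 15 of the 18 class 3 probe sets, among them all those of Sema3b, Sema3d, Sema3e and Sema3g, fell below the filter on low values. Sema4f, Sema5b and Sema6a also had no tested probe set. In all 37 member probe sets were not tested, and their signals ran up to 169 in Gata6-KO, on 1 array for a Sema6c probe set, and up to 87.2 in Gata6-WT.

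Plxdc2 was lower in Gata6-KO on each of its 3 probe sets. It encodes a transmembrane protein that shares a short extracellular domain with plexins and is a receptor for pigment epithelium-derived factor, and it is neither a plexin nor a known semaphorin receptor. Probe set 1418912_at had signals of 3335, 4005 and 2846 in Gata6-KO and 22109, 19766 and 23740.0 in Gata6-WT. The difference was 6.46-fold lower (log2 −2.69 ± 0.14 SE, limma adjusted p = 1.09e-05), and the 2 groups were far apart. Probe set 1449270_at had 876, 749.9 and 826 in Gata6-KO and 4979.8, 4369 and 4809 in Gata6-WT (−2.51 ± 0.11, adjusted p = 8.4e-06). Probe set 1431110_at had 549, 642 and 439 in Gata6-KO and 3339, 3059.9 and 2502 in Gata6-WT (−2.42 ± 0.17, adjusted p = 3.58e-05). Its relative Plxdc1 was dim, and its probe sets differed by −0.96 (1442610_at, adjusted p = 0.22) and −0.53 (1424902_at, adjusted p = 0.43).

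For a single probe set, the exact two-sided permutation test over the 6 pools cannot give a p below 0.1, which every member with separate groups reached.

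The 17 called probe sets had the same direction in the male-type pair and in the female-type pools. For Nrp1 1448943_at the log2 difference was 2.37 in the male-type pair and 2.09 in the female-type pools. For Nrp2 1435349_at it was 2.56 in the male-type pair and 3.23 in the female-type pools. Sema4a 1438934_x_at differed by 2.20 in the male-type pair and 2.50 in the female-type pools, and Sema6d by 1.65 in the male-type pair and 1.42 in the female-type pools. Plxdc2 1418912_at differed by −2.72 in the male-type pair and −2.68 in the female-type pools. In limma 0 of the 47 member probe sets passed the test of a difference between the types (smallest adjusted p = 1.00), and 2 had an unadjusted p under 0.05. That test rests on 1 male-type array a genotype, so it has little power, and missing the threshold does not show that the types were alike.

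**Figure D3:**
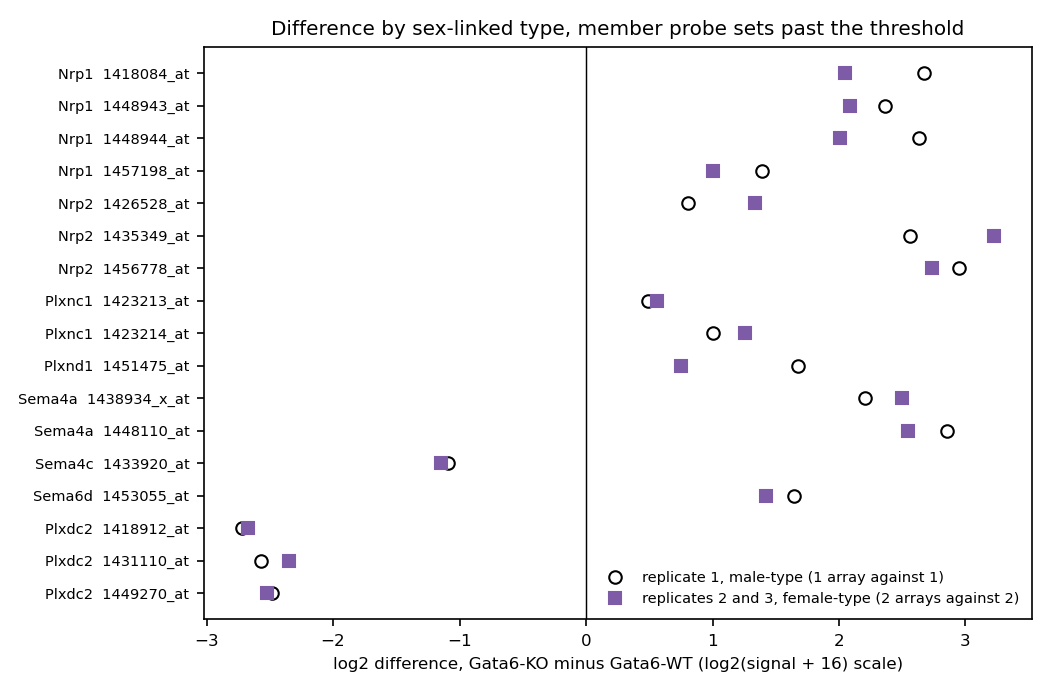
Log2 difference (Gata6-KO minus Gata6-WT, log2(signal + 16) scale) of the 17 called probe sets in the male-type pair (open circles, 1 array against 1) and in the female-type pools (squares, 2 arrays against 2). Each pair of symbols lies on the same side of 0, and Plxnd1 has the widest gap, at 1.67 in the male-type pair and 0.75 in the female-type pools.

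A list of 77 partners and effectors of semaphorin signalling was followed beside the members, 74 of them on the array and 60 tested. By gene 3 were higher and 9 lower in Gata6-KO and 48 did not pass, where 13.1% of all genes passed. The median log2 difference was 0.02.

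Of 15 tested co-receptors and other receptors, 2 were lower (13.3%, near the 13.1% of all genes called either way) and the rest did not pass. Mst1r, a receptor kinase that can associate with class B plexins, had 237, 165 and 358 in Gata6-KO and 1228, 1098 and 2009 in Gata6-WT (log2 −2.45 ± 0.29 SE, limma adjusted p = 0.00074). Itgb1, the integrin subunit through which Sema7a also acts, had 7613, 6159 and 6189 in Gata6-KO and 15917, 12353 and 12560.1 in Gata6-WT (−1.03 ± 0.13, adjusted p = 0.0013). Neither gene's groups overlapped, but averaged over its tested probe sets Itgb1 differed by −0.57 and missed the threshold (adjusted p = 0.054). On their brightest probe sets the 3 tested neuropilin ligands outside the semaphorins did not pass, with log2 differences of 0.02 for Vegfa, 0.79 for Vegfd and −1.05 for Hgf. Of the other 2 tested Hgf probe sets, 1442884_at was lower (−2.73, limma adjusted p = 0.0030) and 1425379_at did not pass (−0.50, adjusted p = 0.33). Kdr, a growth factor receptor that works with Nrp1, differed by −0.02. The endothelial markers, of which 1 of 5 was tested and did not pass, had a summed signal of 245 to 310 in Gata6-KO and 227 to 299 in Gata6-WT.

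Of 17 tested GTPases and their regulators, 2 were higher and 4 lower (35.3%, where 13.1% of all genes passed). Tiam1, an exchange factor for Rac, had 671, 631 and 597 in Gata6-KO and 2783, 4341 and 3545 in Gata6-WT (log2 −2.44 ± 0.16 SE, limma adjusted p = 3.1e-05). Rnd3, an atypical small GTPase, had 1488, 713 and 746 in Gata6-KO and 4309, 2959.8 and 3366 in Gata6-WT (−1.90 ± 0.26, adjusted p = 0.0018). Both were lower on every Gata6-KO pool than on any Gata6-WT pool. The smaller calls were the GTPases Rhoa (0.58, adjusted p = 0.021) and Rap1a (0.42, adjusted p = 0.019), higher, and the GTPase-activating protein Arhgap35 (−0.81, adjusted p = 0.027) and the guanine nucleotide exchange factor Arhgef12 (−0.45, adjusted p = 0.030), lower. Dimmer probe sets of 3 GTPase genes whose brightest did not pass were also called, with Rac1 (1423734_at, 0.46) and Rap1b (1435518_at, 0.50) higher and Rras2 (1448689_at, −1.17) lower, at limma adjusted p of 0.017, 0.012 and 0.0082 for Rac1, Rap1b and Rras2.

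Of 16 tested kinases and cytoskeletal effectors, 3 were lower (18.75%, where 13.1% of all genes passed) and the rest did not pass. Fyn, a Src family kinase that acts in class 3 semaphorin signalling in neurons, had 359, 370.1 and 441 in Gata6-KO and 886, 936 and 803 in Gata6-WT (log2 −1.14 ± 0.14 SE, limma adjusted p = 0.0011). Mical1, an enzyme that oxidises actin, differed by −1.89 on its brightest probe set (adjusted p = 0.027) and the kinase Cdk5 by −0.59 (adjusted p = 0.027). The other tested Mical1 probe set, 1416759_at, was also lower (−1.60, limma adjusted p = 0.0043). Of 9 tested adaptors and proteases 1 was higher by its brightest probe set (11.1%, near the 13.1% of all genes). This was Adam17, a metalloprotease that sheds membrane proteins, with 3897, 3304 and 3769 in Gata6-KO and 2363, 2266 and 1819 in Gata6-WT (0.77 ± 0.13, adjusted p = 0.0055). A dimmer probe set of the related protease gene Adam10, 1450104_at, was also higher (1.22, limma adjusted p = 0.034), while the brightest (0.35) and 1450105_at (0.49) did not pass. The call of Cdk5 was lost whichever of the 6 arrays was left out (limma adjusted p 0.058 to 0.078). Those of Arhgap35 and Arhgef12 held only without Gata6-KO replicate 3, and that of Mical1 only without Gata6-KO replicate 1, with adjusted p up to 0.085, 0.12 and 0.080 for Arhgap35, Arhgef12 and Mical1. Rhoa held without Gata6-KO replicate 2 or Gata6-WT replicate 1 and was lost without any of the other 4 arrays, and Rap1a was lost without Gata6-KO replicate 2 or 3 or Gata6-WT replicate 2 (adjusted p up to 0.086 for Rhoa and 0.082 for Rap1a). Averaged over their tested probe sets, Rhoa (0.47, adjusted p = 0.058), Arhgef12 (−0.34, adjusted p = 0.17) and Cdk5 (−0.62, adjusted p = 0.16) also missed the threshold. Those of Mst1r, Itgb1, Tiam1, Rnd3, Fyn and Adam17 were not lost without any 1 array.

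**Figure D4:**
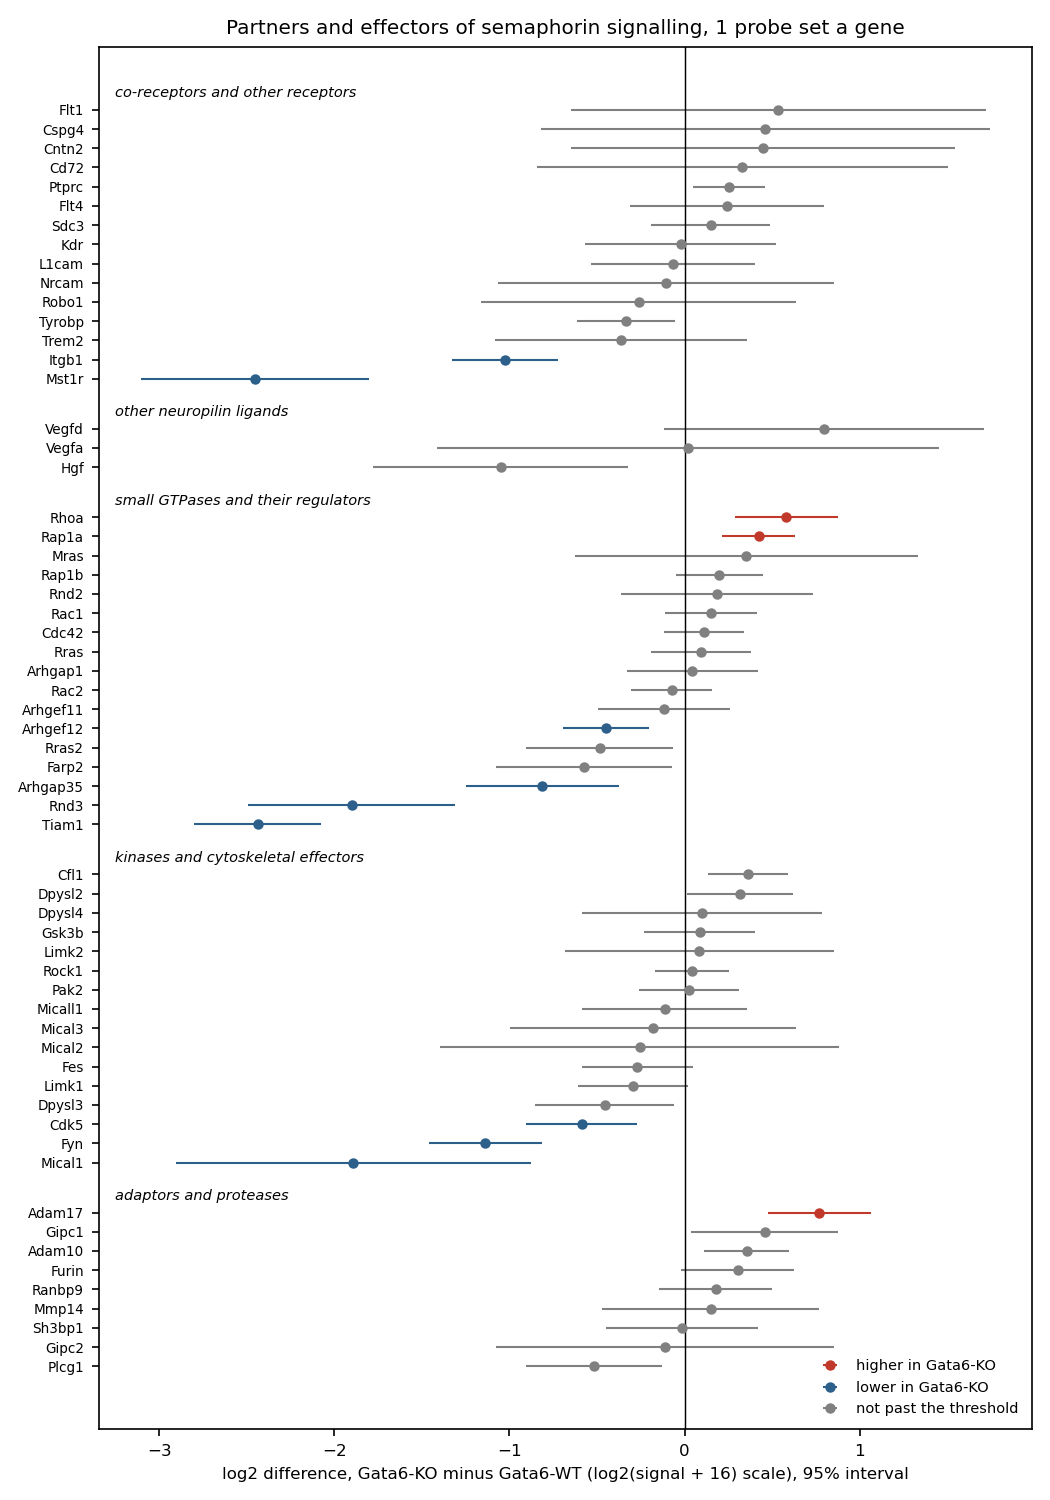
Log2 difference (Gata6-KO minus Gata6-WT, log2(signal + 16) scale) with 95% limma intervals of the 60 tested partners and effectors, 1 probe set a gene, in 5 groups. The 9 genes in blue passed the threshold lower in Gata6-KO, led by Mst1r at −2.45 and Tiam1 at −2.44, and the 3 in red passed it higher, with none above 0.77.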

How the data were processed

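RNA of 6 sorted, pooled macrophage samples was read on 1-colour arrays. The authors' deposited values are linear probe set intensities. MAS5 and affy are named, without versions or roles, per the submitters' processing notes. Checked on the deposited table, the mean of each array with 2% trimmed from each end was 500, so arrays were used as scaled. Genes were named by the platform annotation through probe sets with 1 symbol, and sequences come from RefSeq (GRCm38.p6).

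Values were taken as log2(signal + 16) and compared by a two-sided linear model with genotype as its only term (limma 3.58.1 under R 4.3.3, eBayes with trend), with Benjamini-Hochberg adjustment over 27022 of 45037 probe sets, controls left out. The code was tested on simulated data. Files hold intensities and no counts, so the number of arrays limits the precision.

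Members and gene lists were chosen with earlier results of these data known. Named with all values are members past the threshold or averaging 1000 or more in a group, and called partners are named. Alternatives varied the offset, filter, scaling, trend, weights, blocks, arrays and the choice of probe set.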

Additional observations from a re-analysis of the deposited data

How the results depend on the processing

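In the main analysis 2916 probe sets, 17 member probe sets, 8 member genes and 12 partners passed. Without the trend 1459 probe sets, 5 member genes and 7 partners passed, and over the female-type pools alone 1654 probe sets and 5 member genes. At an adjusted p under 0.01 these were 1251 probe sets, 5 member genes and 6 partners, and with at least a 2-fold difference 1256 probe sets and 6 partners. Leaving out 1 array at a time gave 1856 to 2476 probe sets, 13 to 16 member probe sets, 5 to 7 member genes and 6 to 10 partners. The 5 member genes called under each of the 20 alternatives were Nrp1, Nrp2, Sema4a, Sema6d and Plxdc2, whereas Plxnd1 was called in 12 and Plxnc1 and Sema4c in 11 each. No called member or partner changed direction in any alternative run. Median scaling split all calls into 1112 higher and 1707 lower and quantile normalization into 1476 and 1484, against 1384 and 1532. The replicate numbers are not a stated pairing. Deviations of same-numbered arrays correlated at 0.128, 0.0743 and 0.0741, each array correlating best with its own number, and with a replicate block 3076 probe sets, 16 member probe sets, 8 member genes and 13 partners passed. With 3 pools a genotype, small differences such as that of Plxnc1 stay near the threshold, and many semaphorins were too dim to be tested.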
